A study of Bos taurus with 60 samples.

Results

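Levels of 6 interferon-stimulated genes were followed across the endometrium of 60 beef heifers. The genes were ISG15 (ENSBTAG00000014707), MX1 (ENSBTAG00000030913), MX2 (ENSBTAG00000008471), OAS2 (ENSBTAG00000014628), RSAD2 (ENSBTAG00000016061) and IFI6 (ENSBTAG00000007554), out of 24616 genes in the count table. They were chosen by the shape of their own levels across these heifers and by how those levels agreed, so both are described without a test. Only the comparisons between diets, which the rule for choosing them does not use, were tested.

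All heifers were nulliparous crossbred beef females whose oestrous cycles had been synchronised, and all were inseminated with semen from the same sire. They received either a control ration with rumen-protected palmitic acid (CON) or a ration with a fish oil product rich in n-3 polyunsaturated fatty acids (n-3 PUFA) for 30 days before insemination, and kept their lipid supplement until slaughter. After insemination they stayed on their high plane of nutrition (High) or were restricted to feed below maintenance (Low), and endometrium was collected at slaughter 16 days later. By the sample labels, 14 heifers were CON_High, 14 were CON_Low, 17 were PUFA_High and 15 were PUFA_Low, whereas the design text deposited with the series puts 15 n-3 PUFA heifers in the High and 17 in the Low arm. The study's own text holds both divisions. The labels were followed. Age was not given, and whether an individual heifer carried a conceptus was not part of the labels. The study's methods count the heifers with and without a conceptus in each group, but do not say which heifers these were. Each dietary group is therefore treated as a mixture in this respect. The labelled tissue was not checked against endometrial markers, because only the 6 genes carry symbols here.

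In cattle the elongating conceptus secretes interferon tau around this stage, and the endometrium answers through the type I interferon receptor and the JAK-STAT pathway. The transcription complex that forms at the end of this pathway binds response elements in the promoters of interferon-stimulated genes and switches them on. These genes are best known as antiviral effectors, and in ruminants their induction in the uterus is a long established mark of maternal recognition of pregnancy. The same pathway answers to other type I interferons, for example during viral infection. Endometrium is a bulk tissue of epithelium, stroma, vessels and leucocytes, so a lower level cannot be told apart from fewer cells that make the transcript.

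A heifer's library held 9635801 to 13943813 counts on genes (median 11556278). Levels are given as CPM, the count scaled to a library of fixed size after TMM scaling, and differences as log2(CPM + 1). The 6 genes together took between 0.0184% and 1.63% of all counts in a heifer. The lowest share was in PUFA_High replicate 11, with 2020 counts on the 6 genes (95% exact binomial interval 0.0176 to 0.0192%, which covers counting error only), and the highest in CON_High replicate 1 (1.62 to 1.64%). All 6 passed the filter on low counts, and the fewest counts seen for a member in any heifer were 6, for OAS2. Levels are compared between heifers for each gene and not between genes, because gene lengths were not used.

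ISG15 encodes a ubiquitin-like protein that is conjugated to other proteins after exposure to interferon and is a standard marker of conceptus signalling in blood and uterus. Its level ran from 10.1 CPM in CON_High replicate 9 to 3679 CPM in a PUFA_Low heifer, a ratio of 364, with a median of 1074 CPM. Sorted by level, the heifers fell into 2 separate runs. The highest of the lower run was at 30.4 CPM and the lowest of the upper run at 226 CPM, an empty stretch of 2.86 on the log2 scale, with 14 heifers below and 46 above. The next widest step between neighbouring heifers was 0.53. Group medians were 1245 CPM in CON_High, 1222 in CON_Low, 993 in PUFA_High and 886 in PUFA_Low. Every group held heifers at both ends, with lowest values between 10.1 and 17.6 CPM and highest values between 2450.02 and 3679 CPM, so the groups overlapped over nearly the whole range.

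MX1 and MX2 encode dynamin-like GTPases that block the replication of viruses, and they lie next to each other in the cattle genome with 0 annotated genes between them (RefSeq, ARS-UCD2.0). MX1 ran from 70.3 to 4890.3 CPM, a ratio of 69.6. Its widest step, 1.34 on the log2 scale, lay between 188 and 479 CPM and again had 14 heifers below and 46 above. Group medians of MX1 were 1949.7 CPM in CON_High, 2727 in CON_Low, 1852 in PUFA_High and 2091 in PUFA_Low. The order of the groups was therefore not that of ISG15, and each group again spanned the gap.

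MX2 covered the widest range of the 6 genes, from 2.81 CPM in CON_High replicate 9, where 30 counts were found, to 2372 CPM, a ratio of 844. No tested gene had a larger standard deviation over the heifers (2.92 on the log2 scale, against a median of 0.344 over all 14363 genes tested). The widest step of MX2, 3.09 on the log2 scale, lay between 18.03 and 161 CPM, with 14 heifers below and 46 above. Its group medians were close together, at 702 CPM in CON_High, 866 in CON_Low, 796 in PUFA_High and 727 in PUFA_Low. The number of MX2 counts for each MX1 count was not constant, at 0.0370 to 0.135 in the 14 lowest heifers and 0.168 to 0.848 in the other 46. How reads that fit more than 1 place were counted is not stated in the sources used here, and the part of such reads in this ratio was not tested.

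OAS2 encodes an oligoadenylate synthetase, which senses double-stranded RNA and makes the messenger that activates RNase L. It had the fewest counts of the 6 genes, and its level ran from 0.562 to 188 CPM. The widest step was smaller, 0.89 on the log2 scale, between 3.42 and 7.21 CPM, but it split the heifers into 14 and 46 as well. Below the step the counts were few, with 6 counts in the lowest heifer, so differences among the lowest heifers are poorly resolved for this gene. Group medians of OAS2 were 46.7 CPM in CON_High, 41.6 in CON_Low, 55.1 in PUFA_High and 29.7 in PUFA_Low. The lowest median was thus in PUFA_Low, where values ran from 0.678 to 156 CPM and overlapped those of the other groups.

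RSAD2 encodes viperin, a radical SAM enzyme that makes an antiviral nucleotide analogue. It ran from 10.0 to 3245 CPM, a ratio of 324, with the widest step, 2.40 on the log2 scale, between 33.4 and 181 CPM. The split was once more 14 and 46. Group medians of RSAD2 were 985 CPM in CON_High, 1288 in CON_Low, 953 in PUFA_High and 819 in PUFA_Low.

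IFI6 encodes a small interferon-induced membrane protein that limits cell death. It was the gene with the least clear separation. Its level ran from 57.1 to 6136 CPM, a ratio of 107, and its widest step, 0.78 on the log2 scale, lay between 415 and 713 CPM with 17 heifers below and 43 above. Group medians of IFI6 were 1877 CPM in CON_High, 2151 in CON_Low, 1475 in PUFA_High and 1413 in PUFA_Low. Both n-3 PUFA medians lay below both control medians, and the ranges overlapped, at 57.1 to 3500.2 CPM in PUFA_High, 189 to 4642 in PUFA_Low, 134 to 6136 in CON_High and 147 to 4159 in CON_Low.

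**Figure D1:**
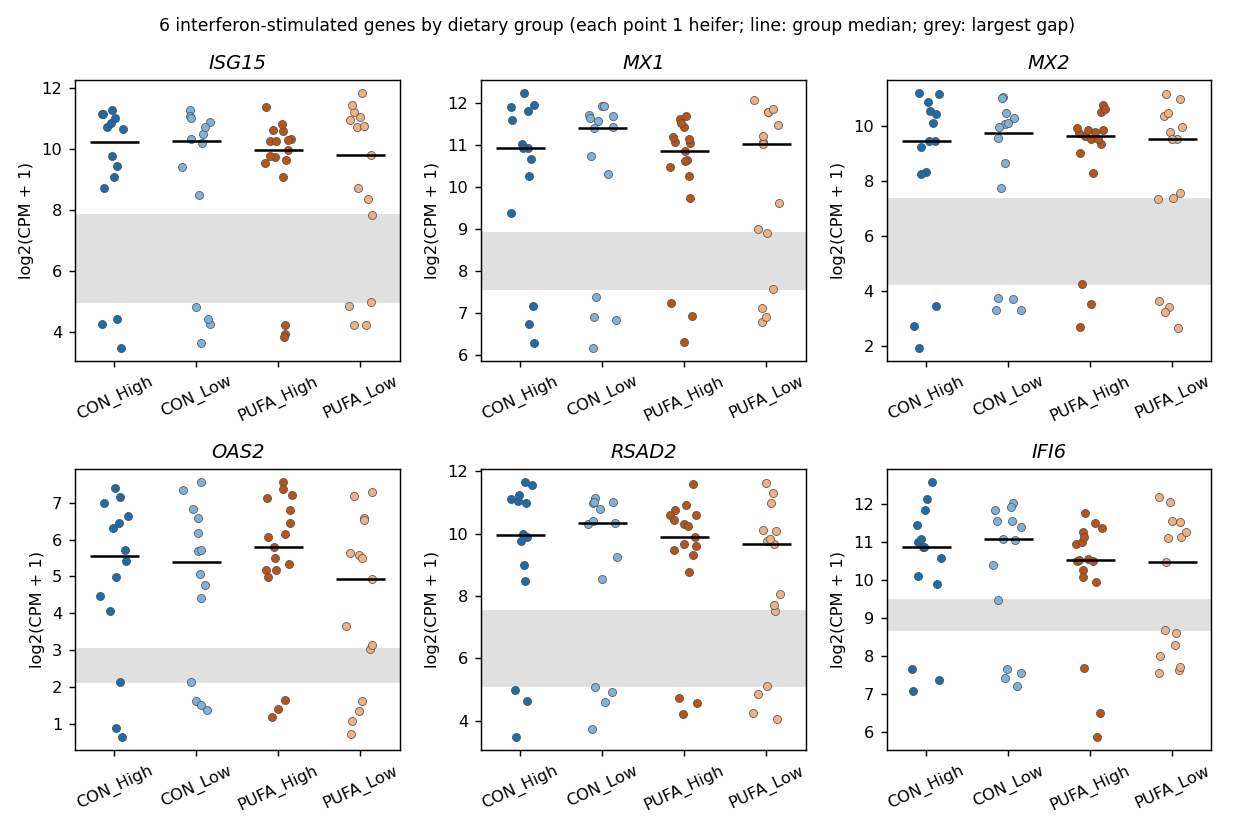
Level of each of the 6 genes in log2(CPM + 1) on the vertical axis, by dietary group on the horizontal axis; each point is 1 heifer, the line is the group median and the grey band the widest step between neighbouring heifers. Every group has heifers below and above the band in all 6 genes, and the band is widest for MX2 (3.09) and narrowest for IFI6 (0.78).

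As a description of how uncommon such steps were, the median widest step over all 14363 genes tested was 0.0970 on the log2 scale, counted in the same way with at least 5 heifers on each side. Only 3 genes had a wider step than MX2, 4 than ISG15, 9 than RSAD2, 20 than MX1, 32 than OAS2 and 40 than IFI6. These counts include members among one another. The spread of the levels ranked in a similar way, with 3 genes having a larger standard deviation than ISG15, 5 than RSAD2, 12 than OAS2, 20 than MX1 and 36 than IFI6.

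The genes placed the heifers alike. In total, 14 heifers lay below the step in all 6 genes and 43 lay above it in all 6, which left 3 heifers with mixed positions. The 14 were the same heifers for each of ISG15, MX1, MX2, OAS2 and RSAD2. The 3 mixed heifers were PUFA_Low replicates 1, 2 and 13, and each lay below the step for IFI6 alone. Their IFI6 levels were 415, 310 and 388 CPM, above the 57.1 to 257 CPM of the 14 low heifers. For MX2 they were at 167, 161 and 189 CPM and for RSAD2 at 181, 268 and 207 CPM, which made them the 3 lowest of the upper run in both genes. OAS2 also placed them lowest in the upper run, at 11.6, 7.21 and 7.83 CPM. ISG15 and MX1 did so for replicates 1 and 2 but not for replicate 13. That heifer was at 420 CPM for ISG15 and 786 CPM for MX1, above CON_High replicate 8 in both (416 and 661 CPM). They were thus low for heifers of the upper run, and the step of IFI6 lay 3 heifers higher in the order than that of the other genes.

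**Figure D2:**
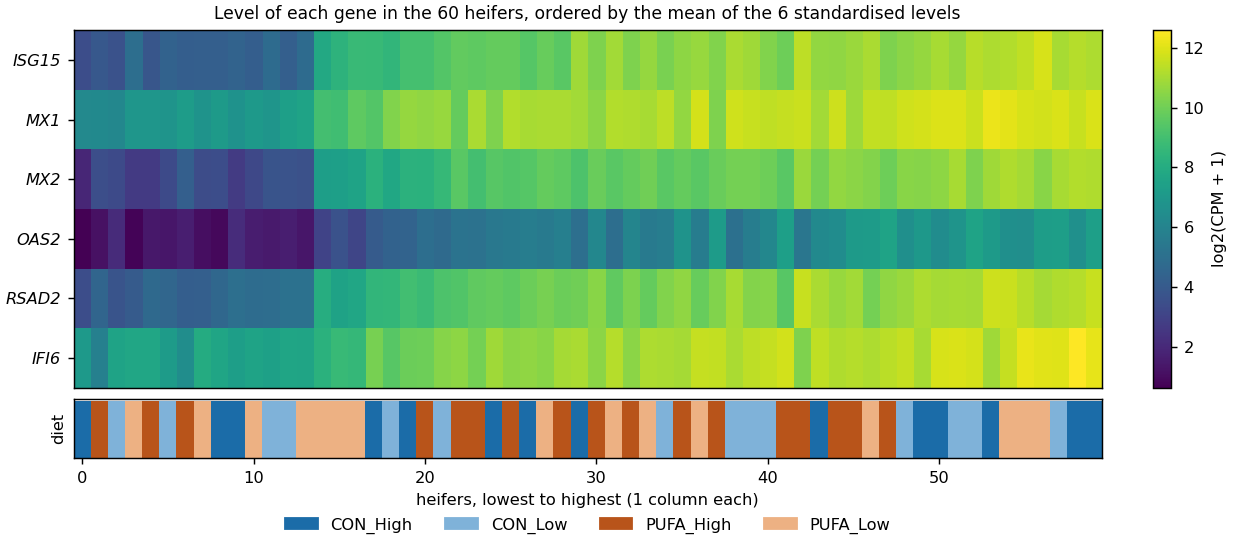
Level of the 6 genes (rows, colour in log2(CPM + 1)) in each of the 60 heifers (columns), ordered from left to right by the mean of the 6 standardised levels, with the dietary group of each heifer in the strip below. The 14 columns on the left are dark in all 6 rows, the next 3 columns are the mixed PUFA_Low heifers, and the 4 groups are interspersed along the order.

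All 4 dietary groups contributed to the low heifers in similar shares. They were 3 of 14 in CON_High (21.4%, 95% exact interval 4.66 to 50.8%), 4 of 14 in CON_Low (28.6%, 8.39 to 58.1%), 3 of 17 in PUFA_High (17.6%, 3.80 to 43.4%) and 4 of 15 in PUFA_Low (26.7%, 7.79 to 55.1%). Each of these intervals contains the shares of the other groups and that of all heifers (14 of 60, 23.3%, 13.4 to 36.0%). With so few heifers a group, a moderate difference in the share was not detectable. In PUFA_Low, 8 of 15 heifers lay above the step in all 6 genes and 3 were the mixed heifers, which were set apart by the narrowest step, that of IFI6. With the planes exchanged these 3 would belong to the other arm, and this count was not tested between groups.

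Measures of the libraries are given for the 14 low heifers and the other 46, and their part in the split was not tested. Total counts were 10032791 to 13943813 in the 14 low heifers and 9635801 to 13306629 in the other 46. The 100 most abundant genes took 18.2 to 30.8% of counts in the former and 17.8 to 30.5% in the latter. Between 16269 and 16928 genes were detected in the low heifers and between 16272 and 16960 in the others. These ranges overlapped almost entirely. The share of counts on the 6 genes was 0.0184 to 0.0482% against 0.138 to 1.63%, which follows from a split made on these same genes. The libraries carry codes with 6 prefixes, 10 heifers each, whose meaning the labels do not state. Low heifers numbered 1 of 10 for each of JE1, JE3 and JE5, 3 of 10 for each of JE2 and JE6, and 5 of 10 for JE4 (50%, 95% exact interval 18.7 to 81.3%). Both low and high heifers occurred under every prefix, and the part of the prefix in the split was not tested.

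Since the heifers form 2 clusters, agreement within each cluster was described separately, with no p-value. Among the 43 heifers above the step in all 6 genes, Spearman's rho over the 15 pairs of genes ran from 0.52 to 0.92 with a median of 0.71, and Pearson's r from 0.57 to 0.93 with a median of 0.73. MX2 and RSAD2 were the most alike (rho 0.92), and ISG15 and OAS2 the least (rho 0.52). The order of heifers within the upper run was shared in part, most closely between MX2 and RSAD2, and least where OAS2 was paired with ISG15 or MX1 (rho 0.53). Leaving out, for each pair, the 2 heifers farthest from the median of the first gene moved r to between 0.49 and 0.92, with a median of 0.68.

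Among the 14 low heifers the agreement was looser. Spearman's rho ran from -0.22 to 0.58 with a median of 0.32, and Pearson's r from -0.20 to 0.67 with a median of 0.34. The highest rho was between MX1 and RSAD2 (0.58) and the lowest between OAS2 and IFI6 (-0.22). Without the 2 heifers farthest from the median, r ran from -0.18 to 0.66 with a median of 0.27, and single pairs moved widely, as MX1 and OAS2 from 0.026 to 0.38. The 14 low heifers also covered a narrower range of levels than the 43 upper heifers. On the log2 scale MX1 ran from 6.16 to 7.57 in the 14 and from 9.37 to 12.26 in the 43. IFI6 ran from 5.86 to 8.01 in the 14 and from 9.48 to 12.58 in the 43. The part of the narrower range and of the fewer heifers in the looser agreement was not tested. All points within a pair share the same libraries and scaling.

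**Figure D3:**
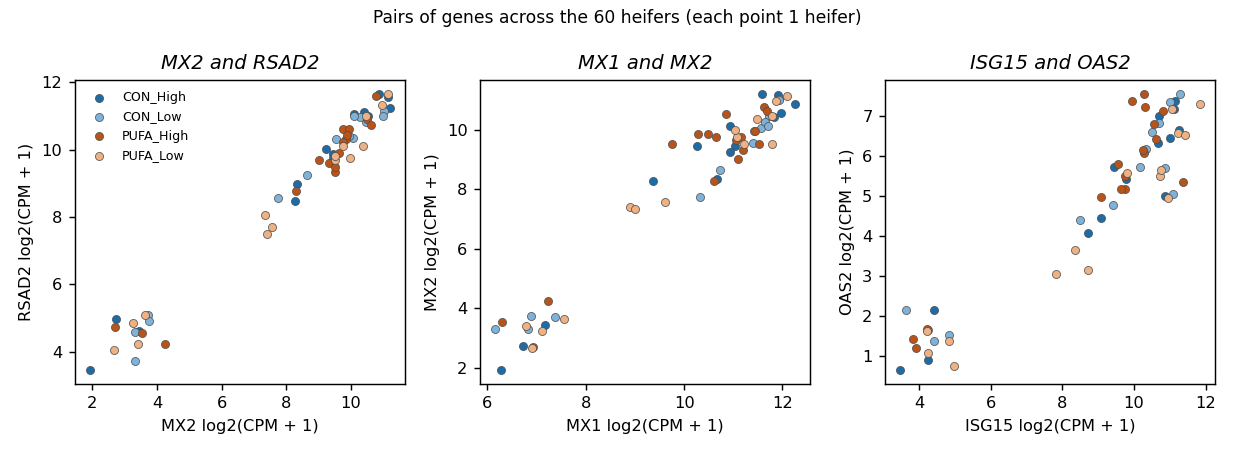
Pairs of genes across the 60 heifers, both axes in log2(CPM + 1), each point 1 heifer coloured by dietary group. MX2 and RSAD2 follow the tightest line among the upper heifers (rho 0.92, n = 43), ISG15 and OAS2 the loosest (rho 0.52), and the 14 low heifers form a separate cloud in each panel.

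The plane of nutrition after insemination was compared within n-3 PUFA heifers, the setting where many genes differed. Of all genes tested, 806 (5.61%) were differentially expressed between PUFA_Low and PUFA_High, which here means an adjusted p below 0.10 together with more than a 1.5-fold change. None of the 6 interferon-stimulated genes was among them, and 0 of 6 had an unadjusted p under 0.05, against 5120 of the 14363 genes. OAS2 had the estimate furthest from 0, a log2 fold change of -0.64 (SE 0.650, 95% interval -1.94 to 0.66, adjusted p = 0.502, edgeR quasi-likelihood test with Benjamini-Hochberg adjustment). The estimate for ISG15 was 0.26 (interval -1.11 to 1.62), for RSAD2 -0.26 (-1.61 to 1.09) and for MX2 -0.088 (-1.54 to 1.36). MX1 and IFI6 were nearest to no change, at 0.026 and 0.059. The median of the 6 log2 fold changes was -0.031 and that of all genes tested -0.029. The size and sign of these estimates depended on the fit: limma-voom gave -1.24 for OAS2, -0.85 for MX2, -0.84 for RSAD2 and values below 0 for all 6 genes, whereas with the share of counts on the 100 most abundant genes as a covariate all 6 were above 0 (OAS2 0.28, or 0.67 with the 6 genes left out of that share). The median of this share was 24.9% in PUFA_Low against 20.9% in PUFA_High, 21.5% in CON_Low and 20.9% in CON_High, so the covariate and the PUFA_Low group cannot be fully told apart.

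For ISG15 the order of the groups depended on the summary used. PUFA_Low had the lowest median of ISG15 (886 CPM against 993 in PUFA_High) and the highest mean (1219 ± 1192 CPM, SD, n = 15, against 1019 ± 682 CPM, n = 17), and the fitted fold change follows mean counts. On the log2 scale the means were 8.73 ± 2.85 in PUFA_Low and 9.07 ± 2.48 in PUFA_High, in the opposite order, and limma-voom, which fits on a log scale, gave -0.33 for this comparison.

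Within control heifers, no gene was differentially expressed between CON_Low and CON_High (0 of 14363, 0%), with 705 genes at an unadjusted p under 0.05. The 6 interferon-stimulated genes likewise gave 0 calls and 0 unadjusted p-values under 0.05. RSAD2 had the largest estimate, a log2 fold change of -0.31 (SE 0.718, interval -1.75 to 1.12), and MX1 the smallest, 0.017 (interval -1.14 to 1.17). The median over the 6 genes was -0.11, beside -0.014 over all genes, and adjusted p-values lay between 0.977 and 1.00 (edgeR).

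The n-3 PUFA supplement was compared with the control on each plane. On the low plane, 369 genes (2.57%) were differentially expressed between PUFA_Low and CON_Low, 0 of the 6 among them, with adjusted p-values of the 6 between 0.785 and 0.918 (edgeR) and 0 of 6 at an unadjusted p under 0.05, against 3803 of all genes tested. OAS2 had the largest estimate, -0.35 (SE 0.676, interval -1.70 to 1.00), and that of ISG15 was 0.16 (interval -1.27 to 1.59). With the abundant-gene share as a covariate all 6 estimates were above 0, with OAS2 at 0.56, or at 1.00 with the 6 genes left out of the share. The median over the 6 genes was -0.23, beside -0.0099 over all genes.

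On the high plane, 0 of 14363 genes (0%) were differentially expressed between PUFA_High and CON_High, with 1513 at an unadjusted p under 0.05, and the 6 genes gave 0 calls and 0 unadjusted p-values under 0.05. IFI6 had the largest estimate, -0.38 (SE 0.522, interval -1.42 to 0.67, adjusted p = 0.808, edgeR), followed by RSAD2 at -0.34 (SE 0.683). The estimate for OAS2 was 0.21 (interval -1.10 to 1.52). Limma-voom gave values above 0 for 5 of the 6 genes, for example 0.32 for MX2 where edgeR gave -0.28. The median over the 6 genes was -0.26, beside -0.0015 over all genes. PUFA_Low and PUFA_High, as well as the control groups, enter more than 1 of these comparisons, so the estimates are not independent of one another.

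**Figure D4:**
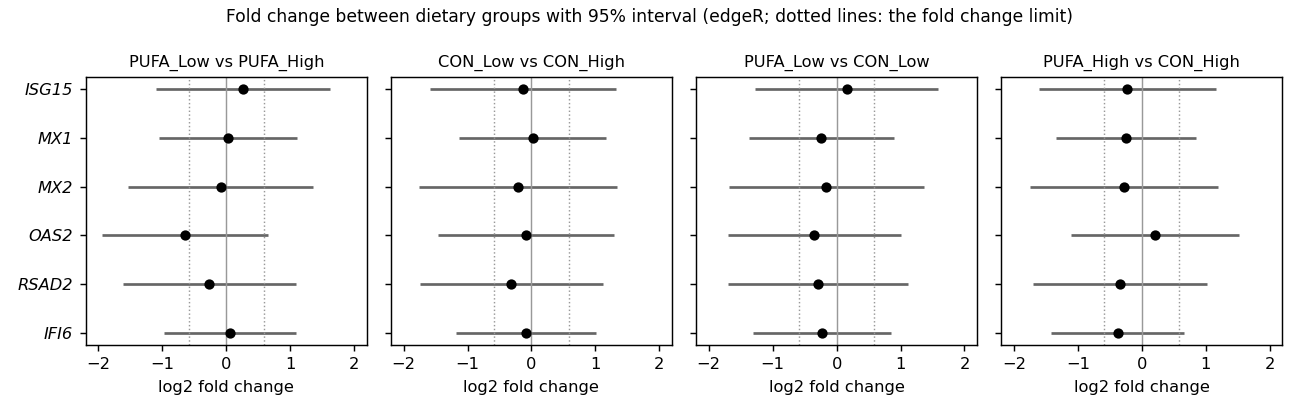
Log2 fold change of the 6 genes (horizontal axis) in the 4 comparisons of 2 dietary groups, with 95% intervals from the edgeR fit; dotted lines mark a 1.5-fold change in either direction. Every interval contains 0 and reaches past both dotted lines.

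In each of these 4 comparisons the interval of every member reached beyond a 1.5-fold change in both directions. A difference of that size was therefore not detectable for these genes with 14 to 17 heifers a group, and the absence of calls does not show that the diets gave equal levels. The standard errors of the 6 genes were 0.513 to 0.774 on the log2 scale.

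Across the whole design, the interaction of supplement and plane was called for 1155 genes (8.04%), the average plane effect for 53 genes (0.369%) and the average n-3 PUFA effect for 0 genes (0%, with 1262 genes at an unadjusted p under 0.05). In each of the 3, 0 of the 6 interferon-stimulated genes were called and 0 had an unadjusted p under 0.05, compared with 4174 of all genes in the interaction and 2449 in the averaged plane comparison. Their intervals lay within -2.44 to 2.38 for the interaction, -1.31 to 1.06 for the average plane effect and -1.30 to 0.96 for the average n-3 PUFA effect. Lowest adjusted p-values of the members were 0.732, 0.744 and 0.847 in that order (edgeR). The median estimate of the 6 genes for the average n-3 PUFA effect was -0.23, beside 7.8e-05 over all genes.

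A search of the other 14357 genes tested showed how widely the pattern was shared. Each gene was ranked by Spearman's rho over the 60 heifers with the mean of the 6 standardised levels, as a description. The median rho was -0.032, and 12730 genes lay between -0.5 and 0.5. At the upper end, 202 genes had a rho above 0.8 and 85 above 0.9. The members themselves, each against the other 5, were at 0.87 for OAS2 to 0.95 for MX2. At the lower end, 5 genes had a rho under -0.8.

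The most alike was ENSBTAG00000012335 (rho 0.97), which was at 14.8 to 46.9 CPM in the 14 low heifers and at 71.3 to 939 CPM in the others. ENSBTAG00000019979 (rho 0.96) was at 10.0 to 20.4 CPM against 45.8 to 394 CPM, again with no overlap between the runs. In the opposite direction, ENSBTAG00000021442 (rho -0.84) was at 21.1 to 46.1 CPM in the low heifers and 8.47 to 36.3 CPM in the others. ENSBTAG00000046160 (rho -0.83) was at 26.7 to 61.2 CPM against 18.1 to 40.4 CPM. Of these 4 genes, the pair of negative rho overlapped between the runs and the pair of positive rho did not. The 4 were picked by their rho with the same 6 genes that define the runs. Their separation between the runs therefore follows in large part from that choice and is no separate finding. The widest step of ENSBTAG00000012335 itself was 0.61 on the log2 scale, with 18 heifers below it. None of these 4 was called in any of the 7 comparisons of diet, where between 0% and 8.04% of all genes tested were called. With shares this small, the absence of calls among 4 genes is no result about them. The 4 genes are given by identifier because the gene table at hand pairs none of its symbols with Ensembl identifiers.

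**Figure D5:**
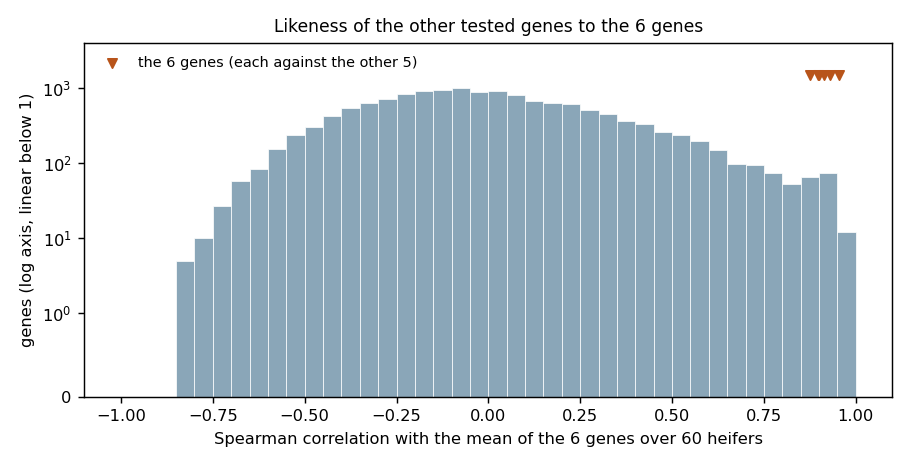
Number of genes (vertical axis, logarithmic above 1) by Spearman's rho over 60 heifers with the mean of the 6 interferon-stimulated genes (horizontal axis), for the 14357 other genes tested; triangles mark each of the 6 genes against the other 5. Most genes lie near 0, a smaller rise appears between 0.85 and 0.95, and the triangles lie between 0.87 and 0.95.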

How the data were processed

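RNA from the endometrium of 60 heifers was sequenced as single-end reads. Per the labels and the study's methods, the authors aligned reads with TopHat2 2.0.9 to UMD3.1, counted them on genes with HTSeq 0.5.4p5 and deposited raw counts without normalization in 1 table of 24616 genes (3947 with no count). Strand and multi-mapped reads are not described in the sources used here.

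These deposited counts were filtered by filterByExpr (14363 genes kept), scaled by TMM and fitted in 1 quasi-likelihood model over all 60 heifers, with a coefficient for each group, in edgeR 4.0.16 (R 4.3.3). p-values were adjusted by Benjamini-Hochberg over all genes in each of 7 comparisons, and genes were called at an adjusted p under 0.10 and a fold change above 1.5. This limit is wider than the 0.001 set in the study's methods, which was run as an alternative. Levels are log2(CPM + 1). The step of a gene is the largest distance between neighbouring sorted levels with at least 5 heifers on each side.

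Members, gene lists and tests were chosen with earlier results of these data known, calls between diets over the whole table included; the rule for the members uses their levels across heifers and not those calls. Genes named were the 6 members and the 2 highest and 2 lowest by likeness to them. Lists of pathway genes and of cell type markers could not be used, since 0 of 37063 RefSeq genes in the table at hand carry an Ensembl identifier. Among 423 pairs of libraries within groups the smallest chi-square per gene was 17.4, so none was counted as a repeat. p-values set each difference between groups against the spread between heifers within groups. For the 6 genes this spread includes the split into low and high heifers, which occurred in every group. Alternatives were other scaling, DESeq2 1.42.0, limma 3.58.1 (voom), other filters and thresholds, blocks, covariates, an exchange of the n-3 PUFA planes, each heifer left out, and a normal mixture (mclust 6.1.1).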

Additional observations from a re-analysis of the deposited data

How the results depend on the processing

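In all 7 comparisons, 0 of the 6 genes were called by edgeR, DESeq2 and limma-voom and under every other alternative run, and 0 when each of the 60 heifers was left out in turn. Over 12 settings, 486 fold changes of single genes were recomputed. For 60 of them the size equals that of the main fit by construction (all 42 with robust dispersion and 18 with the planes exchanged). The remaining values with the planes exchanged also follow from the main estimates, because only the group labels change. They stay in the next counts and are no independent check. Of the 426 outside these 60, 336 kept their sign and 90 changed it (39 of 252 in the 4 comparisons of 2 groups and 51 of 174 for the interaction and the averages). All 486 ran from -1.24 to 1.00, and the smallest adjusted p was 0.325 and the smallest unadjusted p 0.164. The 14 low heifers were the same under every alternative to the widest step. The normal mixture put 18 heifers in the lower part for MX1 in place of 14. Depth limits OAS2 most, with 6 counts in its lowest heifers. Over all pairs of heifers from different groups, same-numbered heifers did not deviate together (mean correlation -0.059, other numbers 0.0053). Of the 60 heifers, 1 matched its own number best, so replicate numbers were not taken as pairs. By the study's methods, heifers were blocked within supplement before assignment to a plane. The labels do not name these blocks, so the main fit leaves them out. The check on replicate numbers cannot show whether heifers of a block were alike.

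The estimates that changed sign in the comparisons of 2 groups, all log2 fold changes short of the test, were these, and the cause was not tested. For the interaction and the averages they are given only as the count above, and all 198 values there ran from -1.09 to 0.89. For PUFA_Low against PUFA_High, library size alone gave -0.11 for MX1 and -0.11 for IFI6, the block by library code prefix -0.060 and -0.049, and the replicate block, a fit with replicate number as a block, -0.14 for ISG15, -0.20 for MX1 and -0.049 for IFI6. Limma-voom gave -0.33 for ISG15, -0.34 for MX1 and -0.22 for IFI6, and moved OAS2 to -1.24, MX2 to -0.85 and RSAD2 to -0.84 without a change of sign. Taking as covariate the share of counts on the 100 most abundant genes gave 0.31 for MX2, 0.28 for OAS2 and 0.13 for RSAD2, and the same share without the 6 genes, added after seeing the data, 0.58, 0.67 and 0.36. Exchanging the planes turns this comparison around by construction, to -0.26 for ISG15, -0.026 for MX1, 0.088 for MX2, 0.64 for OAS2, 0.26 for RSAD2 and -0.059 for IFI6. Leaving out 1 heifer gave -0.13 to 0.13 for MX1, -0.32 to 0.030 for MX2 and -0.12 to 0.17 for IFI6.

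For CON_Low against CON_High, the block by prefix gave 0.078 for IFI6 and limma-voom -0.088 for MX1. Leaving out 1 heifer gave -0.090 to 0.17 for MX1, -0.35 to 0.12 for OAS2 and -0.22 to 0.14 for IFI6. For PUFA_Low against CON_Low, the block by prefix gave -0.16 for ISG15, and the exchange of planes -0.097 for ISG15 and 0.29 for OAS2. The covariate gave 0.085 for MX1, 0.28 for MX2, 0.56 for OAS2, 0.14 for RSAD2 and 0.12 for IFI6, and without the 6 genes 0.36, 0.62, 1.00, 0.43 and 0.42. Leaving out 1 heifer gave -0.055 to 0.31 for ISG15 and -0.40 to 0.020 for MX2. For PUFA_High against CON_High, the block by prefix gave -0.013 for OAS2, the replicate block 0.028 for ISG15, and the exchange 0.031 for ISG15 and -0.43 for OAS2. Limma-voom gave 0.091 for ISG15, 0.025 for MX1, 0.32 for MX2 and 0.049 for RSAD2. The replicate block changed no call.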

Other observations

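Heifers of the upper run often did not hold the same place in all 6 genes. Of the 43 above the step in all 6, 12 differed by at least 20 places between their highest and lowest rank (6 PUFA_High, 3 CON_High, 2 PUFA_Low and 1 CON_Low), and the median difference was 14 places. PUFA_High replicate 4 ranked 58 of 60 for ISG15 and for RSAD2 (2656 and 3074 CPM) but 28 for OAS2 (39.8 CPM) and 23 for IFI6 (1235 CPM). PUFA_High replicate 16 stood the other way round, at rank 57 for OAS2 (164 CPM) and 52 for IFI6 (3500.2 CPM) but 24 for RSAD2 (713 CPM). PUFA_High replicate 6 ranked 54 for OAS2 (147 CPM) and 21 for MX1 (1237 CPM). These were the 3 heifers with the largest difference in rank between members, 35, 33 and 33 places, and were picked after their values had been seen.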
